A study of Arabidopsis thaliana with 12 samples.

Results

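Cvi-0 (hereafter Cvi) and Shahdara (hereafter Sha) are natural accessions of Arabidopsis thaliana, and their transcriptomes were compared here in the stressed state. Plants were 3 weeks old and had been exposed for 2 h to 350 nL L-1 ozone (O3), and the control plants of each accession had been kept for 2 h in clean air (CA). The libraries were made from rosettes, 4 of them pooled per library, so that the spread between the 3 libraries of a group is a spread between pools. The comparison was Cvi O3 (3 libraries) against Sha O3 (3 libraries) over every gene with a count in at least 1 of these 6 libraries, which gave 27553 genes of the 34212 loci in the table. Both groups carry the same treatment and no introduced mutation or transgene, but the accessions differ in natural variants. The paper states, from earlier work, that the guard cell kinase MPK12 is functionally impaired in Cvi, and links this to higher stomatal conductance and O3 uptake. The CA libraries (3 per accession) were used to show which differences were also present without O3.

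Leaves take up O3 mainly via open stomata. Once dissolved around the cells it yields reactive oxygen species (ROS), and NADPH oxidases of the plasma membrane add to them. In Arabidopsis the early response includes mitogen-activated protein kinases, the hormones salicylic acid (SA), jasmonic acid (JA), ethylene and abscisic acid (ABA), antioxidant enzymes, and in sensitive plants cell death. The results are therefore ordered by these functions, from JA and ROS to photosynthesis, immune receptors and protein folding.

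Estimated counts per O3 library ranged from 12871261 to 25158564 in Sha and from 21699862 to 31565681 in Cvi, so that a count of 3 in each library, taken as the floor, was a mean of 0.17 CPM (counts scaled to a common library total of 1000000) in Sha O3 and 0.13 CPM in Cvi O3. Sha O3 replicate 2 stood apart, with a correlation of log2 CPM of 0.953 and 0.951 with the other Sha O3 libraries, against 0.987 between those and at least 0.988 within Cvi O3. Group counts are therefore also given without it for many lists. In CA, Sha replicate 2 was apart as well (0.967 and 0.973, against 0.990 between the other Sha CA libraries), and its part in the CA values and in the differences in response was not tested. The 5 leaf markers were present in all 6 libraries (7840 to 19200 CPM summed in Sha, lowest in replicate 2, and 19300 to 23900 in Cvi). Root markers summed to 35.5 to 88.4 and 80.4 to 87.6 CPM, and flower markers to 4.04 to 7.12 and 1.01 to 1.09 CPM with 5 of 5 lower in Cvi. Stomatal lineage markers summed to 30 to 42.2 and 34.2 to 44.1 CPM, and the seed genes OLEO1 and LEC1 had no count. Chloroplast-encoded genes took 0.624% ± 0.290 (SD, n = 3) of the counts in Sha O3 and 0.126% ± 0.0277 in Cvi O3, which did not overlap (exact permutation test, two-sided p = 0.1, the smallest value that 3 against 3 allows). Counts were estimated against a Col-0 transcriptome, so that a gene without counts in one accession may be absent, silent or too different in sequence to be matched, and these cannot be told apart. Sequence differences may also lower the counts of a gene in part. Graded differences therefore carry the same limit, and its size was not tested. Genes that overlap another locus have uncertain values, since the strand setting of the counting is not given in the sources used here. Of the genes named below without a further remark, these are JAZ10, JAZ12, RBOHG, GSTU6, IGPS, 4CL1, ERS1, PEPR2, FLS2, MC1, APR3 and AT3G44430 (opposite strand) and RPM1, LSD1, BON1, AT1G61430 and AT4G13495 (same strand). Likewise, fewer cells of a type and less RNA per cell cannot be told apart in these pooled rosettes.

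Of the 28549 genes tested, 5285 were higher in Cvi O3 than in Sha O3 (18.5% of genes tested) and 3958 were lower (13.9%), by edgeR with a minimum change of 1.2-fold and a Benjamini-Hochberg adjusted p of at most 0.05. Such a gene is called higher or lower below, always for Cvi relative to Sha. The shares of 18.5% and 13.9% over all genes tested are the background for every list count below. The median log2 fold change was 1.51 among the genes called higher and -1.23 among those called lower, and it was 0.04 over all genes tested. At least a 2-fold difference was found for 3661 of the higher and 2463 of the lower genes, and at least an 8-fold difference for 1446 and 781. In CA, 2523 genes were higher (8.84%) and 2649 lower (9.28%) between the same accessions. Without Sha O3 replicate 2, the O3 comparison gave 4724 higher and 3676 lower genes, of which 4451 and 3287 were among those called with it. The 3 Cvi and the 3 Sha libraries did not overlap for 46.0% of the genes tested.

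**Figure D1:**
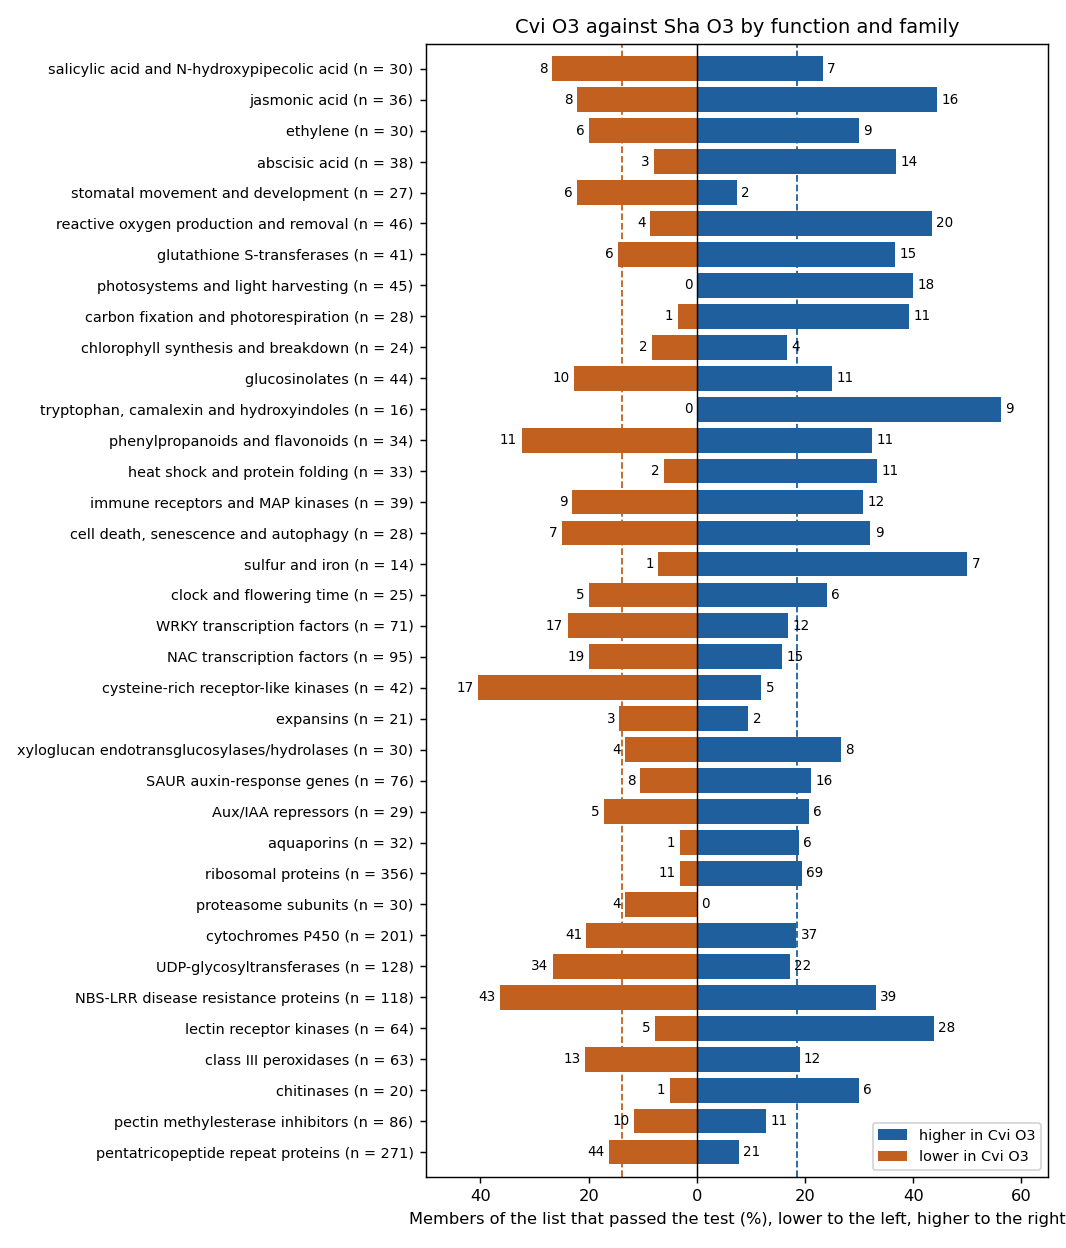
Percent of the members of each function list called higher (to the right) or lower (to the left) in Cvi O3 than in Sha O3, with the number of genes at the end of each bar; the dashed lines mark 18.5% and 13.9%, the percentages over all genes tested. Tryptophan and camalexin (9 of 16), sulfur and iron (7 of 14), JA (16 of 36), lectin receptor kinases (28 of 64), ROS (20 of 46) and photosystems (18 of 45) had the longest bars to the right, and CRKs (17 of 42) and NBS-LRR proteins (43 of 118) to the left.

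JA is made from linolenic acid in the chloroplast by lipoxygenase (LOX), allene oxide synthase (AOS) and allene oxide cyclase (AOC), and then in the peroxisome by OPR3. Its signal removes the JAZ repressors from transcription factors such as MYC2, and JAZ genes are themselves switched on by the signal. Of the 36 JA genes, 16 were higher and 8 lower in Cvi O3, with a median log2 fold change of 0.52, whereas in CA 2 were higher and 2 lower and the median was -0.31. The higher genes were 7 of 13 synthesis genes and 8 of 17 signalling genes. Without Sha O3 replicate 2, 15 genes were higher and 9 lower, and the median was 0.20 (0.86 without Sha O3 replicate 1).

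AOC3 had 179.6, 101 and 273 CPM in the Sha O3 libraries and 1142, 1477 and 1249 CPM in the Cvi O3 libraries. The groups were far apart, and AOC3 was 2.80 ± 0.30 (SE) higher on the log2 scale (edgeR, adjusted p = 8.68e-15). Both accessions had only a few CPM of AOC3 in CA (means of 3.50 in Sha and 4.85 in Cvi). LOX3 was at 49.0 to 75.4 CPM in Sha O3 and 255 to 327 CPM in Cvi O3 (log2 fold change 2.18 ± 0.20), and OPR3 at 244 to 519 and 1060 to 1146 CPM (1.61 ± 0.25). The synthesis genes did not all differ in one direction: among the 4 AOC genes, AOC2 was also higher (1.80), while AOC1 (-1.61) and AOC4 (-2.35) were lower, and AOC4 was the only one of the 4 that was also called in CA (-1.52). AOC1, AOC2 and AOC3 lie next to each other on chromosome 3 (chr3:9403779-9405338, chr3:9406669-9408071 and chr3:9409160-9411090, TAIR10.1).

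Among the repressors, JAZ1 had 292, 131 and 282 CPM in Sha O3 and 1002, 1246 and 1200 CPM in Cvi O3, a log2 difference of 2.29 ± 0.34 (edgeR, adjusted p = 2.42e-08). JAZ5 (2.69), JAZ8 (2.38), JAZ10 (2.22), JAZ2 (1.59), JAZ12 (1.17) and JAZ3 (0.75) were higher too, JAZ11 was lower (-0.94), and JAZ4, JAZ6, JAZ7 and JAZ9 did not pass the test. JAZ3 lost its call without Sha O3 replicate 2 (0.57, edgeR adjusted p = 0.0572) and without Cvi O3 replicate 2 (0.66, adjusted p = 0.0551). MYC2, the central activator of JA responses, was at 47.95 to 88.3 CPM in Sha O3 and 194 to 245 CPM in Cvi O3 (1.58 ± 0.26), but a second locus annotated on the opposite strand covers it, and the values of the pair are uncertain. MYC4 was lower (-0.98) and MYC3 did not pass the test (0.06). CYP94C1, which oxidises the active JA-isoleucine, was higher by 2.47. CYP94B3, the other turnover gene of the list, was lower (-3.4) at low levels (0.189 to 3.17 CPM in Sha O3 and 0.0497 to 0.149 CPM in Cvi O3).

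The classical JA target genes did not follow the synthesis and JAZ genes. PDF1.2, a plant defensin induced by JA with ethylene, had 16.6, 6.09 and 6.83 CPM in Sha O3 and 1.14, 0.595 and 1.11 CPM in Cvi O3. It was lower in Cvi under O3 (log2 fold change -3.36 ± 0.80, edgeR adjusted p = 7.35e-04) and in CA (-4.63). VSP2, a vegetative storage protein, had 13.7, 0.422 and 2.26 CPM in Sha O3 and 0.546, 0.495 and 0.418 CPM in Cvi O3. These libraries overlapped, and the call (-3.47) was lost without Sha O3 replicate 1 (-1.55, edgeR adjusted p = 0.0506). VSP1 and THI2.1 did not pass the test.

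The promoters of 3 JAZ genes that were higher are shown because they carry the G-box CACGTG, the sequence that MYC2 binds. Each is the 300 bases before the annotated gene start in the Col-0 assembly TAIR10.1 with the RefSeq annotation, written 5′ to 3′ on the strand of the gene, with the G-box in capitals. JAZ2 lies at chr1:28150447-28150746 on the minus strand, JAZ3 at chr3:6119407-6119706 on the plus strand and JAZ8 at chr1:10596052-10596351 on the plus strand.
JAZ2: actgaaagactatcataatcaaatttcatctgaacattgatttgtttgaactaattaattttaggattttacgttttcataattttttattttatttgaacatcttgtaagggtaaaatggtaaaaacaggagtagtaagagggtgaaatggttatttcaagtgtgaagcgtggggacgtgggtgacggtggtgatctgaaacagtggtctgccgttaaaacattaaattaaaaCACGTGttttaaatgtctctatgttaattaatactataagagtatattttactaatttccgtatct
JAZ3: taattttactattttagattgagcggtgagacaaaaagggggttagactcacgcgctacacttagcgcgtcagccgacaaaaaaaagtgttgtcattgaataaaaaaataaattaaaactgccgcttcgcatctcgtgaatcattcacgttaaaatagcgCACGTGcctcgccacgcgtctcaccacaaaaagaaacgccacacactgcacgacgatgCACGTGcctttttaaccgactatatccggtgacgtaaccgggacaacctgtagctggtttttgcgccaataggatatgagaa
JAZ8: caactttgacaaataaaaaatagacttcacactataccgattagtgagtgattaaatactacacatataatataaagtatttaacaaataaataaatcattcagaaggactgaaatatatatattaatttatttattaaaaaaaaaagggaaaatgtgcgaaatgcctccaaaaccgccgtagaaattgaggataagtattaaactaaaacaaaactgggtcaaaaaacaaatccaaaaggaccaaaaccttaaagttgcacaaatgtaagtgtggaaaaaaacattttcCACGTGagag

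The G-box, searched as CACGTG (its own reverse complement, so that both strands are covered), began 66 bases before the start of JAZ2 and 10 bases before that of JAZ8, and JAZ3 had it beginning at 140 and at 82 bases. It was found in 4 of 15 JAZ and MYC promoters, in 3 of the 8 that were higher, 0 of the 2 that were lower and 1 of the 5 others (JAZ7). Over all protein-coding genes it was in 1944 of 27431 promoters of this length (7.09%). JAZ1 and JAZ5, with higher transcript differences than JAZ2, had none in this window, and the sequences of Cvi and Sha themselves were not used here.

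**Figure D2:**
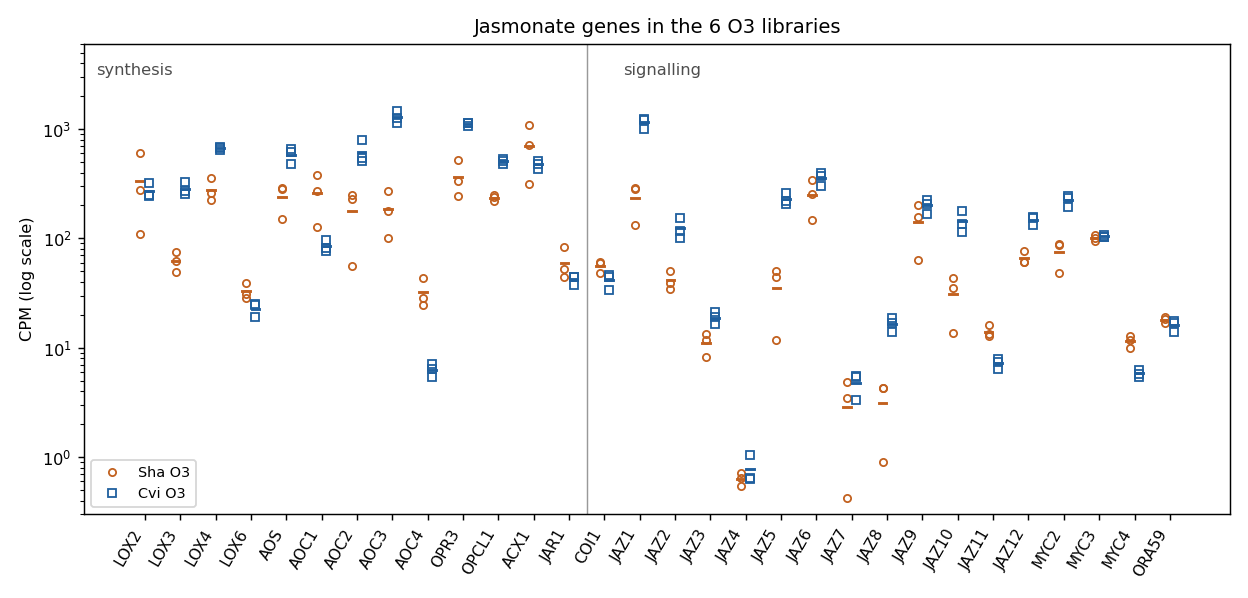
CPM on a log scale of the JA synthesis (left) and signalling (right) genes in each of the 3 Sha O3 (circles) and 3 Cvi O3 (squares) libraries, with a short bar at each group mean. The squares lie above the circles without overlap for AOC3, LOX3, OPR3 and 7 JAZ genes, and below them for AOC1, AOC4, JAZ11 and MYC4.

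Among the enzymes that make and remove ROS, more were higher than lower in Cvi O3. Of 46 genes, 20 were higher and 4 lower, with a median log2 fold change of 0.59 (0.57 with genes at the floor set to their bound); in CA 7 were higher and 7 lower, with a median of 0.34. Without Sha O3 replicate 2, 17 were higher and 5 lower. RBOHF, an NADPH oxidase that forms apoplastic superoxide, had 35.5, 47.5 and 34.9 CPM in Sha O3 and 327, 379.5 and 268 CPM in Cvi O3. All Cvi libraries were several-fold above all Sha libraries, with a log2 fold change of 3.05 ± 0.18 (edgeR, adjusted p = 3.02e-45) under O3 and 1.03 in CA. RBOHD, the main oxidase of immune responses, was at 244 to 348 CPM in Sha O3 and 765 to 823 CPM in Cvi O3 (1.36 ± 0.20), and the accessions did not differ by the test in CA (-0.12). RBOHC was higher (1.90) and RBOHG, at about 2 CPM in Sha O3 and 0.139 to 0.298 CPM in Cvi O3, was lower (-3.48).

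Among the removing enzymes, CAT3 (a peroxisomal catalase) had 37.8, 32.0 and 41.0 CPM in Sha O3 and 669.9, 682 and 858 CPM in Cvi O3. This difference of 4.32 ± 0.24 on the log2 scale was the largest upward change in the list off the floor, and it was present in CA (4.65). CAT2, the leaf catalase, did not pass the test and its libraries overlapped (290 to 824 CPM in Sha O3, 344 to 383 CPM in Cvi O3). Ascorbate peroxidases use ascorbate to remove hydrogen peroxide, and 6 of them were higher in Cvi O3. APX6 was at 10.3 to 13.9 CPM in Sha O3 and 19.8 to 23.7 CPM in Cvi O3 (0.85 ± 0.16). APX1, the cytosolic form, was at 1102 to 1436 CPM in Sha O3 and 1774 to 2303 CPM in Cvi O3, and its call was lost without Sha O3 replicate 1 (0.43), without Sha O3 replicate 3 (0.59), without Cvi O3 replicate 1 (0.62) and without Cvi O3 replicate 3 (0.53). The plastid superoxide dismutase CSD2, which needs copper, was lower (181, 243 and 196 CPM against 91.2, 75.5 and 45.6 CPM, log2 fold change -1.55) whereas the iron form FSD1 was higher (1.56). AOX1A, the alternative oxidase of mitochondria, was at 224 to 308 CPM in Sha O3 and 619.6 to 719 CPM in Cvi O3 (1.24 ± 0.33), a call lost without Sha O3 replicate 1 (1.02, edgeR adjusted p = 0.0522).

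Glutathione S-transferases conjugate glutathione to reactive compounds. The tau class contributed 14 of the 15 higher genes among 41, with 6 genes lower in all, and the median was 0.86 for the tau class against -0.16 (-0.18 with floor genes at their bound) for the phi class. In CA 4 members were higher and 14 lower. GSTU12 had 24.3, 11.8 and 27.6 CPM in Sha O3 and 112, 115 and 132 CPM in Cvi O3, 2.49 higher, although its CA level was lower in Cvi (0.175 against 1.76 CPM). The largest differences off the floor were GSTU6 (3.91; 4.67 without Sha O3 replicate 3) and GSTU1 (-3.99), both expressed at low levels in at least one accession.

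SA is made from chorismate by ICS1 and exported from the chloroplast by EDS5. Both were lower in Cvi than in Sha in CA (-0.95 and -1.63) and both were higher under O3. ICS1 had 653, 399 and 721 CPM in Sha O3 and 1710, 1058 and 1414 CPM in Cvi O3, a log2 fold change of 1.24 ± 0.24 (edgeR, adjusted p = 5.40e-05), and EDS5 had 339, 145 and 458 CPM against 1021, 849.9 and 949.6 CPM (1.58 ± 0.32), with a gene on the opposite strand overlapping it. The lipase-like regulators EDS1 (1.28), PAD4 (1.14) and SAG101 (0.99) were higher as well. Over the 30 genes of SA and of N-hydroxypipecolic acid, the related signal of systemic resistance, 7 were higher (23.3%) and 8 lower (26.7%). Over all genes tested these shares were 18.5% and 13.9%. The median of the list was 0.16 under O3 and -0.47 in CA. Without Sha O3 replicate 2 there were 5 and 6 and the median was -0.055, and the lower genes were 4 without Cvi O3 replicate 1 and 5 without Cvi O3 replicate 2. The 3 genes that inactivate SA or N-hydroxypipecolic acid (DLO1, DMR6 and UGT76B1) were all lower, but none of the 3 calls held for every library left out. DLO1 (-0.86) lost its call without Sha O3 replicate 2 (-0.58) and without Cvi O3 replicate 1 (-0.73). For UGT76B1 (-1.47) the call was lost without Sha O3 replicate 3 (-1.13) and without Cvi O3 replicate 1 (-1.23) or 2 (-1.25), and the difference was -2.10 without Cvi O3 replicate 3, and DMR6 (-0.75) lost its call without Cvi O3 replicate 1 (-0.72) or 2 (-0.60).

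The marker PR1, an SA-induced secreted protein, went the other way from ICS1 under O3. In CA both were lower in Cvi, PR1 by -2.86, and the O3 response of PR1 did not differ between the accessions by the test. PR1 had 429, 30.3 and 267 CPM in Sha O3 and 8.09, 12.7 and 7.73 CPM in Cvi O3, with the lowest Sha value in replicate 2. It was lower by a log2 fold change of -4.67 ± 0.83 (edgeR, adjusted p = 1.37e-05, and -4.00 without Sha O3 replicate 1). PR2 did not pass the test (0.62), and PR5 (0.86) lost its call when any one of 5 of the 6 libraries was left out (0.62 without Sha O3 replicate 2, 0.87 without Sha O3 replicate 3, and 0.80, 0.86 and 0.93 without Cvi O3 replicates 1, 2 and 3). WRKY38, a transcriptional regulator of SA responses, was at 8.81 to 14.1 CPM in Sha O3 and 0.546 to 1.43 CPM in Cvi O3 (-3.45 ± 0.39), and was lower in CA too (-3.26). FMO1, the enzyme that forms N-hydroxypipecolic acid, overlapped between accessions under O3 (11.2 to 84.7 against 47.6 to 68.5 CPM, log2 fold change 0.00) but not in CA, where it averaged 4.24 CPM in Sha and 0.0676 CPM in Cvi.

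Tryptophan is the precursor of camalexin and indole glucosinolates, the indolic defence compounds of Arabidopsis. All 7 tryptophan synthesis genes of the list were higher in Cvi O3, with a median of 1.46 (1.24 without Sha O3 replicate 2) against 0.13 in CA. Examples were the anthranilate synthase beta subunit ASB1 (116, 75.3 and 140.2 CPM in Sha O3, 296, 305 and 312 CPM in Cvi O3, log2 fold change 1.46 ± 0.20), the indole synthesis enzyme IGPS (1.63 ± 0.25) and the tryptophan synthase subunits TSA1 (1.27), TSB1 (1.07; 0.93 and no longer called without Cvi O3 replicate 1) and TSB2 (2.04). The Cvi libraries were above the Sha libraries for each of the 7. ASB1 has 3 and PAI1 (2.99) has 1 near-identical copy in the reference, and their values are uncertain for that reason. Of the 16 genes of tryptophan, camalexin and hydroxyindoles together, 9 were higher (10 without Sha O3 replicate 2) and 0 lower by edgeR (0 also at an unadjusted p under 0.05 and by DESeq2), with a median of 1.17 (1.16 with floor genes at their bound).

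Of the 5 camalexin genes 1 was higher (20%, beside 18.5% of all genes tested). This was GGP1, with 466.5, 442 and 566 CPM in Sha O3 and 1110, 1111 and 1098 CPM in Cvi O3 (1.17 ± 0.19, edgeR adjusted p = 1.65e-06). PAD3, the last enzyme of camalexin synthesis, was at 1295 to 1754 CPM in Sha O3 and 1060 to 1097 CPM in Cvi O3 and did not pass the test (-0.49), and neither did WRKY33 (0.54), the activator of the pathway, or CYP71A13 (1.02), which shares reads with the near-identical CYP71A12. In CA, PAD3 averaged 33.35 CPM in Sha and 4.23 CPM in Cvi and was called lower (-2.98), as was CYP71A13 (-3.27). CYP79B2, which takes tryptophan into indole glucosinolates and camalexin, had 83.9, 29.9 and 98.8 CPM in Sha O3 and 367, 329 and 374 CPM in Cvi O3 (2.33 ± 0.39, edgeR adjusted p = 8.52e-07), although it was lower in Cvi in CA (-1.47). FOX1, an indole-oxidising enzyme, was higher (0.97), a call lost without Sha O3 replicate 2 (0.70) and without Cvi O3 replicate 1 (0.91), 2 (1.04) or 3 (0.95).

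Glucosinolates are sulfur-rich defence compounds that are split by myrosinases when tissue is damaged. Of 44 genes, 11 were higher (25%) and 10 lower (22.7%), beside 18.5% and 13.9% of all genes tested. Without Sha O3 replicate 2 there were 10 and 12. The indolic and aliphatic branches pointed in different directions, with medians of 0.66 and -0.45. Indolic synthesis had 5 of 10 genes higher, led by IGMT1, a methyltransferase of indole glucosinolates, with 13.7, 16.4 and 7.20 CPM in Sha O3 and 446, 399 and 346 CPM in Cvi O3 (5.0 ± 0.33, edgeR adjusted p = 1.89e-35), though 3 near-identical copies may share its counts. Aliphatic synthesis had 5 of 18 genes lower, among them GSL-OH, which forms hydroxylated side chains (25.5, 12.5 and 27.9 against 1.59, 2.38 and 1.71 CPM, -3.54). AOP3, which acts on the same side chains, was at the floor in Sha O3 and at 23.63 to 30.0 CPM in Cvi O3, at least 154-fold higher, with a like difference in CA. Of the 6 regulators of both branches 3 were lower, MYB28 (-1.52), MYB34 (-2.94) and MYB122 (-2.33). MYB76 was higher (0.94), a call lost without Sha O3 replicate 2. The myrosinase TGG1 was higher (1191 to 2074 against 3061 to 3427 CPM, 0.90).

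The phenylpropanoid pathway leads from phenylalanine to lignin on one side and flavonoids on the other, and its parts are given separately. Of the 8 core genes 6 were higher and 1 lower (median 1.53), and of the 6 lignin genes 3 were higher (1 without Sha O3 replicate 2), while of 13 flavonoid enzymes 1 was higher and 6 lower (median -1.05, or -1.08 with floor genes at their bound, and -0.66 with 5 lower without that library). PAL1, the entry enzyme, had 457, 125 and 644 CPM in Sha O3 and 1147, 1039 and 1293 CPM in Cvi O3 (1.5 ± 0.41, edgeR adjusted p = 3.18e-03), with Sha O3 replicate 2 the lowest. PAL2 (1.55), C4H (1.58), 4CL1 (1.36) and CCR2 (2.28), a lignin-branch reductase overlapped by a gene on the opposite strand, were higher too. DFR and LDOX, which make anthocyanins, had 19.98, 25.7 and 6.79 CPM and 21.1, 23.4 and 7.73 CPM in Sha O3. In Cvi O3 they had 3.53, 1.78 and 1.25 CPM and 6.21, 3.37 and 1.71 CPM, so that the groups did not overlap (log2 fold changes -3.00 and -2.21), and both were also lower in CA (-2.82 and -1.99). Chalcone synthase (CHS) did not pass the test (-1.05), but was called lower without Sha O3 replicate 3 (-1.53, edgeR adjusted p = 8.39e-04).

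Ethylene is formed by ACC synthases (ACS) and ACC oxidases (ACO). Of 30 ethylene genes 9 were higher (30%) and 6 lower (20%), beside 18.5% and 13.9% of all genes tested. The median was 0.25, or 0.15 with floor genes at their bound, and in CA 9 were lower. Without Sha O3 replicate 2, 9 were higher and 5 lower under O3, with a median of 0.36. ACS6, a target of stress-activated kinases, was at 141 to 167 CPM in Sha O3 and 318 to 387 CPM in Cvi O3 (1.2 ± 0.19, edgeR adjusted p = 4.17e-07). ACS2 was higher as well (1.56), a call lost without Sha O3 replicate 1 (1.52) and without Cvi O3 replicate 1 (1.62), 2 (1.5) or 3 (1.54), and the value without Sha O3 replicate 3 was 2.17. In contrast ACO1 (17.5, 23.3 and 25.2 against 6.70, 4.16 and 3.59 CPM, -2.20) and the receptors ETR2 (34.7, 35.5 and 39.6 against 12.4, 10.6 and 11.5 CPM, -1.67) and ERS1 (-1.60) were lower, in CA too. ERF6, an ethylene response factor, did not pass the test (1.19) but passed without Sha O3 replicate 3 (1.47).

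ABA closes stomata and is raised by drought and other stresses. Of 38 ABA genes 14 were higher (36.8%) and 3 lower (7.89%), beside 18.5% and 13.9% of all genes tested, with a median of 0.25. In CA 10 were higher and 2 lower with a median of -0.01. Without Sha O3 replicate 2, 15 were higher and 4 lower with a median of 0.42, and without Sha O3 replicate 3 the median was 0.10. NCED3, the rate-limiting enzyme of stress-induced ABA synthesis, had 8.22, 7.18 and 9.92 CPM in Sha O3 and 63.7, 53.0 and 53.1 CPM in Cvi O3 (2.74 ± 0.24, edgeR adjusted p = 9.37e-23), and was higher in CA as well (1.78). HAI1, one of the clade A protein phosphatases that restrain ABA signalling, had 11.5, 6.70 and 9.39 CPM against 80.6, 87.6 and 76.9 CPM (3.15 ± 0.23) and did not differ by the test in CA (-0.47). Of 9 phosphatase genes 6 were higher. The ABA hydroxylase CYP707A3 was higher (1.61), while the transcription factor ABF2 was lower (-0.63). Of 5 ABA target genes 1 was higher under O3 (2 without Sha O3 replicate 2), and 4 were higher in CA. The higher gene was KIN1 (4.89, and 6.4 in CA), a cold and ABA target with a near-identical neighbour. RD29A (0.39), RD29B (0.18), RAB18 (-0.27) and COR15A (0.64) did not pass the test under O3.

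Few stomatal genes were higher in Cvi O3. Of 27 genes 2 were higher (7.41%) and 6 lower (22.2%), beside 18.5% and 13.9% of all genes tested, with a median of 0.00. There were 1 and 4 without Sha O3 replicate 2, and 1 lower without Cvi O3 replicate 2. MPK12, a guard cell kinase that inhibits HT1, was at 7.73 to 12.5 CPM in Sha O3 and 13.7 to 16.9 CPM in Cvi O3. These libraries did not overlap, but the MPK12 transcript did not pass the test (0.56, edgeR adjusted p = 0.0885). Its level does not show the function of the protein, which the paper describes as impaired in Cvi. HT1, a kinase of the CO2 response, overlapped fully (3.51 to 4.34 against 3.86 to 4.07 CPM). SLAC1, the anion channel of stomatal closure, had 7.79, 18.8 and 5.24 CPM in Sha O3 and 4.37, 4.76 and 5.50 CPM in Cvi O3, which overlapped. Its call (-1.11) was lost without Sha O3 replicate 2 (-0.41, edgeR adjusted p = 0.392) and without Cvi O3 replicate 1 (-1.04), 2 (-1.1) or 3 (-1.21). MPK4, a kinase that also serves the CO2 response and is overlapped by genes on the opposite strand, was higher (0.71), and MYB60, a guard cell transcription factor of stomatal opening, was lower (12.6, 12.3 and 8.64 against 5.86, 4.86 and 3.73 CPM, -1.22).

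Among genes of the photosynthetic apparatus, those called were nearly all higher in Cvi O3. Of 45 genes of the photosystems and light harvesting 18 were higher (14 without Sha O3 replicate 2) and 0 lower by edgeR (0 also at an unadjusted p under 0.05 and by DESeq2), with a median of 0.58 (0.37 without that library) against 0.33 in CA, where 4 were higher. Beside LHCB2.3 and LHCA5 below, the higher genes included LHCB6 (1.34), PSAN (1.34) and PSBQ1 (1.27), subunits of the antenna, of photosystem I and of the oxygen-evolving part of photosystem II. Of 28 genes of carbon fixation and photorespiration 11 were higher and 1 lower, with a median of 0.61. Without that library there were 8 and 1 and the median was 0.39, and the higher genes were 18 without Sha O3 replicate 1, 6 without Sha O3 replicate 3 and 7 without Cvi O3 replicate 1. The leaf markers moved in the same direction (2 of 5 higher), and Sha O3 replicate 2 had the lowest median of the 6 libraries in both lists, and their part in these differences was not tested. SBPASE, a regulatory enzyme of the Calvin-Benson cycle, had 462, 218 and 287 CPM in Sha O3 and 1021, 1015 and 1016 CPM in Cvi O3 (1.66 ± 0.24, edgeR adjusted p = 1.77e-08). LHCB2.3, an antenna protein of photosystem II, had 314, 198 and 183 CPM against 546, 486 and 526 CPM (1.17 ± 0.22), and LHCA5, of photosystem I, was at 27.6 to 52.1 against 102 to 132 CPM (1.51). For both, a gene on the opposite strand overlaps.

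RBCS1A, a small subunit of Rubisco, had 5753, 1964 and 4352 CPM in Sha O3 and 8838, 7366 and 6716 CPM in Cvi O3. The groups did not overlap, yet its call (0.93 ± 0.34, edgeR adjusted p = 0.0376) was lost without Sha O3 replicate 2 (0.59) or 3 (0.92) and without Cvi O3 replicate 1 (0.81), 2 (0.95) or 3 (1.01). RBCS2B was higher (1.1), a call lost without Sha O3 replicate 2 (0.75) or 3 (0.93) and without Cvi O3 replicate 1 (0.99), and RBCS1B was lower (439, 137 and 258 against 122, 90.9 and 79.4 CPM, -1.52), although RBCS1A and RBCS2B can share reads as near-identical copies. CHLH, the magnesium chelatase subunit, was called higher (0.78), also without Sha O3 replicate 1 (1.07), but its values were 0.47 without Sha O3 replicate 2, 0.72 without Sha O3 replicate 3, and 0.76, 0.74 and 0.83 without Cvi O3 replicates 1, 2 and 3, none of them called. Of 24 chlorophyll genes 4 were higher (16.7%) and 2 lower (8.33%), beside 18.5% and 13.9% of all genes tested. The higher genes were 8 without Sha O3 replicate 1 and 1 without Sha O3 replicate 2 or 3 or without Cvi O3 replicate 1 or 3. NYE2, which starts chlorophyll breakdown, was lower (5.70, 21.1 and 4.38 against 1.29, 1.44 and 1.22 CPM, -2.98; -1.93 without Sha O3 replicate 2).

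**Figure D3:**
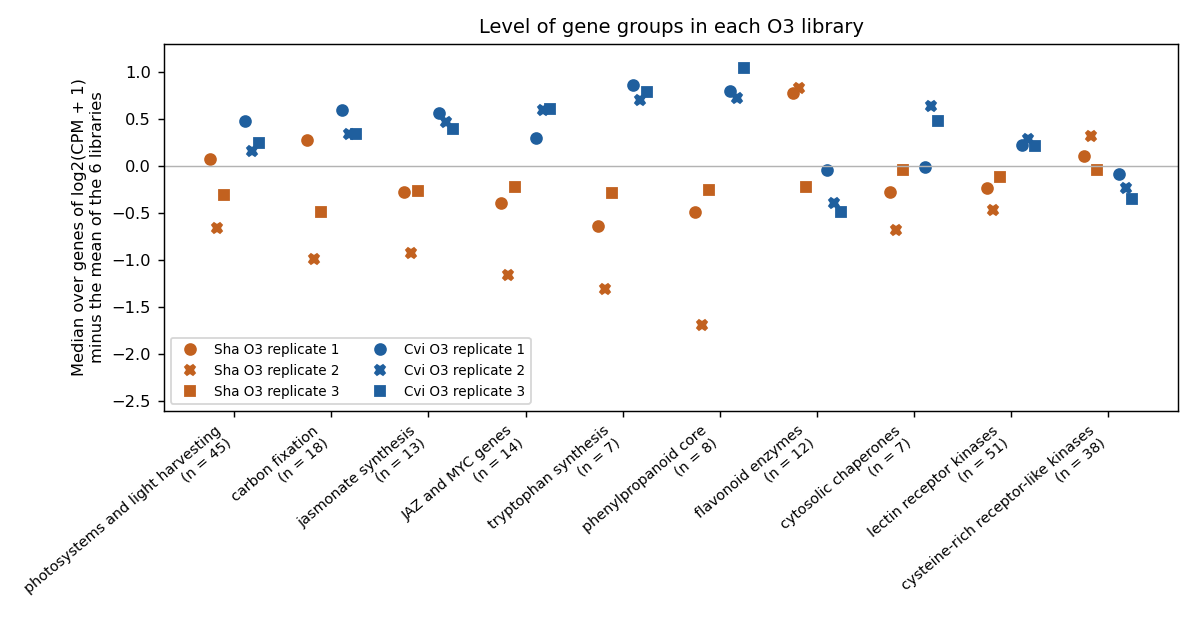
Median over the genes of a group of log2(CPM + 1), each gene centred on its mean over the 6 O3 libraries, for each Sha O3 and Cvi O3 library. Sha O3 replicate 2 is the lowest library for the photosystems, JA synthesis, tryptophan synthesis and the phenylpropanoid core, and the other Sha libraries lie below the Cvi libraries in these groups as well.

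Many intracellular immune receptors differed between the accessions. Of 118 genes annotated as NBS-LRR disease resistance proteins, the intracellular receptors, 39 were higher (33.1%) and 43 lower (36.4%). Over all genes tested these shares were 18.5% and 13.9%. Without Sha O3 replicate 2, 38 were higher and 43 lower, and in CA 23 were higher and 41 lower. The resistance genes RPS4 and RRS1, which act as a pair and lie side by side at chr5:18321764-18326175 and chr5:18326203-18332920 (TAIR10.1), were at 45.9 to 50.4 CPM and 35.7 to 42.2 CPM in Sha O3. In Cvi O3 they were at 0.149 to 0.279 CPM and 0.0348 to 0.149 CPM, so that RPS4 was lower by a log2 fold change of -7.75 ± 0.41 (edgeR, adjusted p = 7.69e-160) and RRS1 at least 288-fold lower. RPM1 was at least 168-fold lower (19.6 to 25.4 CPM in Sha O3). All 3 genes were lower in CA as well, and none differed in its O3 response by the test. In CA, RPS4, RRS1 and RPM1 averaged 12.1, 19.4 and 11.2 CPM in Sha and 0.07, 0.07 and 0 CPM in Cvi. AT4G14370, a receptor of the Toll-like class, went the other way, with 62.7, 38.0 and 67.7 CPM in Sha O3 and 455, 614 and 587 CPM in Cvi O3 (3.30 ± 0.23), and did not differ by the test in CA (0.33). AT1G58807 and AT1G59124, whose reference sequences are identical, were both near the floor in Cvi (-8.24 and -8.10) and cannot be told apart.

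Of 14 receptors at the cell surface 6 were higher and 2 lower. PEPR1, which binds the damage signal Pep1, had 77.7, 51.6 and 86.8 CPM in Sha O3 and 249, 363 and 322 CPM in Cvi O3 (2.11 ± 0.22, edgeR adjusted p = 1.93e-15), and its paralogue PEPR2 was higher by 1.96. Neither passed the test in CA (0.08 and -0.49). FLS2, the receptor of bacterial flagellin, was lower (84.2, 125 and 82.5 against 41.3, 46.0 and 44.2 CPM, -1.15), in CA as well (-1.33). Over the 39 immune receptors and kinases fixed by name, 12 were higher (30.8%) and 9 lower (23.1%), beside 18.5% and 13.9% of all genes tested. Without Sha O3 replicate 2 there were 13 and 8. Among the kinases MPK11 was higher (117 to 214 against 629 to 706 CPM, 1.94) and MKK9 lower (59.1 to 68.8 against 14.1 to 21.2 CPM, -1.96), while MPK3 (0.28) and MPK6 (0.12) did not pass the test.

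The receptor kinase families also split. Of 64 lectin receptor kinases 28 were higher and 5 lower, with a median of 0.64 (0.45 with floor genes at their bound), and 23 and 4 without Sha O3 replicate 2. AT1G61430 had 0.144, 0.121 and 0.377 CPM in Sha O3 and 62.7, 80.1 and 72.6 CPM in Cvi O3 (8.17 ± 0.42; 8.94 without Sha O3 replicate 3, where the other Sha libraries are at the floor), and AT4G28350, at the floor in Sha O3 and at 94.6 to 101 CPM in Cvi O3, was at least 570-fold higher. Cysteine-rich receptor-like kinases (CRKs), many of which respond to ROS and SA, went the other way, with 5 of 42 higher and 17 lower and a median of -0.30. Without Sha O3 replicate 2, 6 were higher and 13 lower and the median was -0.39. That library had the highest CRK level of the O3 libraries. In CA 4 were higher and 15 lower, with a median of -0.60. CRK8 had 76.4, 134 and 65.8 CPM in Sha O3 and 1.89, 0.941 and 1.08 CPM in Cvi O3 (-6.15 ± 0.33, edgeR adjusted p = 2.42e-55), whereas CRK32 was at 0.483 to 2.11 CPM in Sha O3 and 37.4 to 41.8 CPM in Cvi O3 (4.77).

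Heat shock proteins hold other proteins in shape under stress. Of 33 genes of this list, which also covers folding in the endoplasmic reticulum, 11 were higher and 2 lower, with a median of 0.37 (0.10 with floor genes at their bound), and 10 and 1 without Sha O3 replicate 2. The median was 0.20 without Sha O3 replicate 1 and 0.19 without Cvi O3 replicate 2. The disaggregase HSP101 had 179, 49.5 and 210.3 CPM in Sha O3 and 325, 546.5 and 302 CPM in Cvi O3 (1.42 ± 0.40, edgeR adjusted p = 4.96e-03), a call lost without Cvi O3 replicate 2 (1.1), and the small heat shock protein HSP17.4 was higher by 3.22. In both genes Cvi O3 replicate 2 was the highest library and Sha O3 replicate 2 the lowest, and both are overlapped on the opposite strand. HSP70 (715 to 1711 against 910.3 to 1319 CPM) and HSP90.1 (901 to 2149 against 1341 to 1599 CPM) overlapped and did not pass the test (-0.05 and -0.06). In the endoplasmic reticulum the stress regulators BZIP60 (251, 258 and 246 against 540.3, 454 and 408 CPM, 0.89) and BZIP28 (1.46) were higher, but their target BIP3, a chaperone, was lower (27.0, 27.4 and 32.9 against 7.25, 9.56 and 12.7 CPM, -1.56 ± 0.22).

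Regulators of cell death and markers of senescence differed in opposite directions. Of 13 cell death genes 7 were higher (7 also without Sha O3 replicate 2) and 0 lower by edgeR (0 also at an unadjusted p under 0.05 and by DESeq2). Their median was 0.89 under O3 and 0.23 in CA. Of 6 senescence genes 4 were lower under O3, with a median of -1.95. The senescence difference was present in CA to the same extent, with 4 genes lower (3 of them lower under O3 too) and a median of -1.92. BAG6, a co-chaperone cleaved during immunity, had 56.7, 10.4 and 64.3 CPM in Sha O3 and 217, 379 and 195 CPM in Cvi O3 (2.59 ± 0.47), and BAP1, a membrane-associated inhibitor of cell death, had 21.2, 4.46 and 19.2 CPM against 87.8, 86.4 and 89.8 CPM (2.56 ± 0.50). LSD1, which restrains the spread of cell death set off by superoxide, was at 25.3 to 36.4 against 53.6 to 62.5 CPM (0.89). BI1 (1.22) and BON1 (1.34), which are known to restrain cell death, and the metacaspases MC1 (0.90) and MC8 (0.98), which are known to promote it, were the others. SAG12, the classical senescence marker, was at 1.73 to 10.9 CPM in Sha O3 and at 0 in all 3 Cvi O3 libraries, at least 40.7-fold lower. SAG13 was lower by -2.06 (350 to 941 against 108 to 162 CPM). SAG29 was called lower (-3.09) although the libraries overlapped (9.81, 0.0603 and 0.943 against 0.348, 0.595 and 0.313 CPM), and the call was lost without Sha O3 replicate 1 (-0.44) and without Cvi O3 replicate 1 (-2.98) or 3 (-2.91), with -3.67 without Sha O3 replicate 2.

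The WRKY and NAC families of transcription factors held calls in both directions. Of 71 WRKY genes 12 were higher (16.9%) and 17 lower (23.9%), with a median of -0.10 (-0.11 with floor genes at their bound). Of 95 NAC genes 15 were higher (15.8%) and 19 lower (20%), with a median of -0.15 (-0.17 with floor genes at their bound). Over all genes tested the shares were 18.5% and 13.9%. Without Sha O3 replicate 2, 12 WRKY genes were higher and 16 lower, and 14 NAC genes were higher and 16 lower. WRKY22, an early regulator of defence, had 15.9, 9.05 and 13.7 CPM in Sha O3 and 112, 132 and 118 CPM in Cvi O3 (3.23 ± 0.22, edgeR adjusted p = 6.34e-36) and did not pass the test in CA (0.30). WRKY53, a regulator of senescence overlapped by a gene on the opposite strand, was lower (305, 453 and 207 against 146, 104 and 100.05 CPM, -1.46). Among NAC genes NAC061 was higher (1.87 to 3.53 against 18.3 to 39.5 CPM, 3.37) and NAC048 lower (9.38 to 18.1 against 0.497 to 0.801 CPM, -4.21). NAC004 (-2.05; -1.39 without Sha O3 replicate 3) and ANAC068 (-1.31), which has a near-identical copy, were lower too.

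Of 201 cytochromes P450 37 were higher (18.4%) and 41 lower (20.4%), and of 128 UDP-glycosyltransferases 22 were higher (17.2%) and 34 lower (26.6%), beside 18.5% and 13.9% of all genes tested. Without Sha O3 replicate 2 the counts were 39 and 37 for the cytochromes and 21 and 30 for the glycosyltransferases. CYP76C5 had 1.3, 0.543 and 1.51 CPM in Sha O3 and 135, 87.4 and 108 CPM in Cvi O3 (6.59 ± 0.35, edgeR adjusted p = 4.73e-58), and was below 0.3 CPM on average in both accessions in CA. UGT71B6, which glucosylates ABA, went the other way (45.0, 39.9 and 43.1 against 0.199, 0.495 and 0.383 CPM, -6.86), although an annotated opposite-strand locus covers it entirely. CYP705A1 was lower (-4.65; -5.35 without Cvi O3 replicate 2), and the glycosyltransferase AT5G53990 was higher (5.07; 6.24 without Sha O3 replicate 3, where the other Sha libraries are at the floor). Among 63 class III peroxidases and related genes 12 were higher (19.0%) and 13 lower (20.6%), and 9 and 15 without Sha O3 replicate 2. PER4 was at 5.31 to 12.98 CPM in Sha O3 and 118 to 149 CPM in Cvi O3 (3.90 ± 0.29), and DOX1, an oxylipin-forming dioxygenase that the family pattern also took in, was lower (-5.46; -6.37 without Cvi O3 replicate 1, where the other Cvi libraries are at the floor). Of 20 chitinases 6 were higher and 1 lower (median 0.57, or 0.28 with floor genes at their bound; 6 and 3 with a median of 0.36 without Sha O3 replicate 2, and medians of 0.34 and 0.36 without Cvi O3 replicates 1 and 2), led by AT2G43590 (3.50 to 7.73 against 34.3 to 50.6 CPM, 2.80).

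Of 356 ribosomal protein genes 69 were higher (19.4%) and 11 lower (3.09%), beside 18.5% and 13.9% of all genes tested. Their median was 0.34 (0.33 with floor genes at their bound) under O3 and 0.36 in CA. Without Sha O3 replicate 2, 43 were higher and 14 lower and the median was 0.14, and 7 were lower without Cvi O3 replicate 3. Of 271 pentatricopeptide repeat proteins, which process organelle RNA, 21 were higher (7.75%, and 13 genes without Cvi O3 replicate 2) and 44 lower (16.2%). Their median was -0.19 (-0.20 with floor genes at their bound), and in CA 14 were higher and 13 lower. Without Sha O3 replicate 2, 15 were higher and 47 lower under O3. Of 30 proteasome subunits 4 were lower (13.3%, and 7 genes without Sha O3 replicate 1), led by RPT5B (-1.1), which is overlapped on the opposite strand. The cell wall enzyme XTH17, which has a near-identical copy, had 1.08, 1.09 and 0.641 CPM in Sha O3 and 27.7, 25.8 and 24.4 CPM in Cvi O3 (4.85 ± 0.28, edgeR adjusted p = 1.10e-65), and EXPA16, an expansin, was lower (14.2 to 22.4 against 2.48 to 4.32 CPM, -2.47). Auxin-induced genes held both directions, with shares near those over all genes tested. Of 76 SAUR genes 16 were higher (21.1%) and 8 lower (10.5%, with 4 genes lower without Cvi O3 replicate 2 and 5 without Cvi O3 replicate 3). Of 29 Aux/IAA genes 6 were higher (20.7%) and 5 lower (17.2%). IAA19 was at 3.09 to 4.40 against 19.1 to 32.9 CPM (2.76), and IAA27, overlapped on the opposite strand, was lower (-1.34). SAUR33 was called lower (-1.76), a call lost without Sha O3 replicate 2 (-0.82) and without Cvi O3 replicate 2 (-1.55) or 3 (-1.60).

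Sulfur and iron genes and flowering regulators included single large differences. Of 14 sulfur and iron genes 7 were higher (50%) and 1 lower (7.14%), and 6 and 1 without Sha O3 replicate 2. A mean of at least 1 CPM was reached by 10 of the 14. Among the higher genes, BHLH101 had no count in Sha O3 and 0.198 to 0.313 CPM in Cvi O3, at least 1.59-fold higher. BHLH38, BHLH39 and BHLH100 were at the floor in both groups. FER3, a ferritin, was at 13.4 to 15.8 CPM in Sha O3 and 27.3 to 46.7 CPM in Cvi O3 (1.23 ± 0.29), and APR2, an enzyme of sulfate reduction overlapped on the opposite strand, was lower (376, 259 and 270.3 against 100.4, 69.6 and 70.1 CPM, -1.92 ± 0.23, edgeR adjusted p = 3.45e-12) while APR3 was higher (0.74). FLC, the repressor of flowering, had 1.01, 0.181 and 4.90 CPM in Sha O3 and 30.7, 27.2 and 24.8 CPM in Cvi O3 (3.73; 5.51 without Sha O3 replicate 3), with an opposite-strand gene overlapping it, and MAF3, a related repressor, was lower (-2.13). Both differences were present in CA (3.15 and -1.94). The clock gene CCA1 did not pass the test (-0.46) but was called lower without Sha O3 replicate 3 (-0.81).

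**Figure D4:**
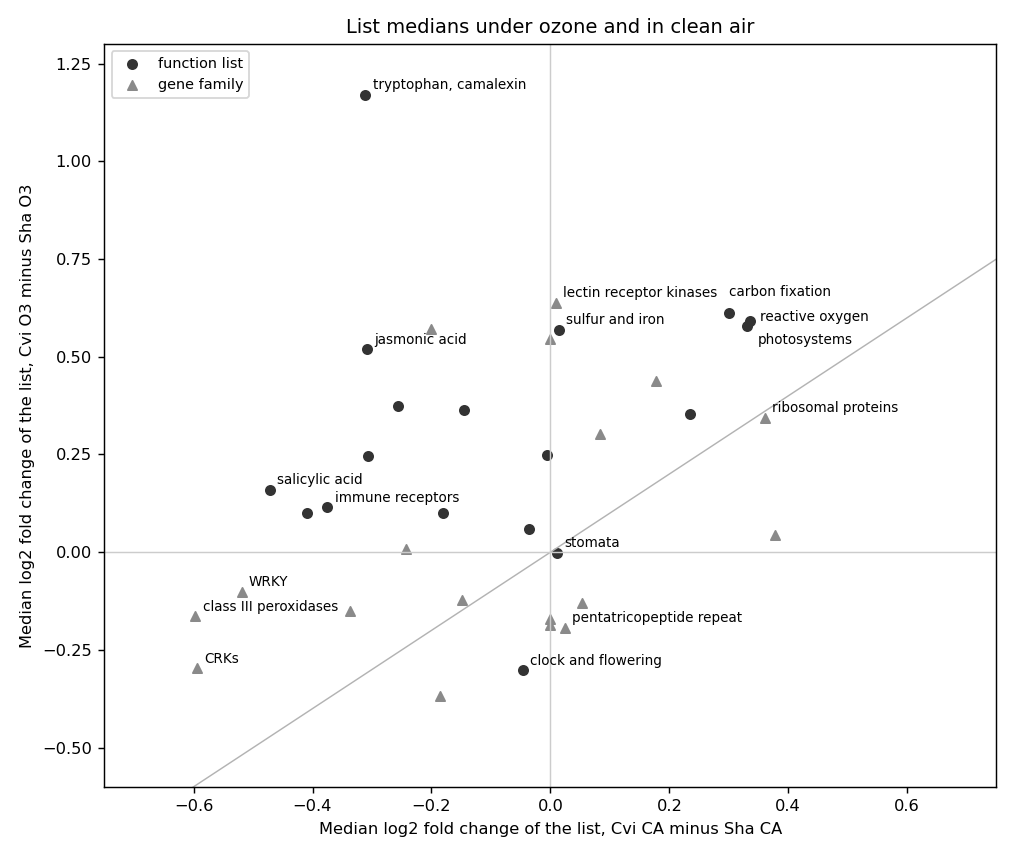
Median log2 fold change of each function list (circles) and gene family (triangles) for Cvi CA against Sha CA on the horizontal axis and Cvi O3 against Sha O3 on the vertical axis; the diagonal marks equal medians. Tryptophan and camalexin (-0.31 in CA, 1.17 under O3) and JA (-0.31, 0.52) lie above the diagonal, and ribosomal proteins are at 0.36 and 0.34 (0.14 under O3 without Sha O3 replicate 2).

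The differences between accessions in their O3 response were tested as the Cvi change minus the Sha change. Of the genes tested 1806 (6.33%) had a more positive response in Cvi and 742 (2.60%) a more negative one. By list, the more positive counts were 12 of 16 for tryptophan, camalexin and hydroxyindoles (5 of them lower in CA over the list), 12 of 36 for JA, 17 of 64 for lectin receptor kinases, 11 of 41 for glutathione S-transferases and 10 of 39 for immune receptors and kinases. The more negative counts of these lists were 1, 0, 4, 1 and 3. Other lists held both directions, with 6 more positive and 6 more negative of 44 glucosinolate genes, 20 and 14 of 118 NBS-LRR genes and 8 and 5 of 42 CRKs. The more positive count was 1 of 45 for the photosystems, whose medians under O3 and in CA were both positive.

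Some of the largest differences off the floor lay outside these functions. AT3G47250, a predicted transmembrane protein, had 0, 0 and 0.226 CPM in Sha O3 and 96.8, 84.2 and 96.9 CPM in Cvi O3 (9.72, a value that rests on Sha O3 replicate 3, since the other Sha O3 libraries are at 0), and the noncoding RNA AT4G04223, which shares a near-identical stretch with AT3G56210, had 0, 0.362 and 0.113 CPM against 84.9, 76.0 and 93.8 CPM (9.02; 10.10 without Sha O3 replicate 2). CSLD1, a cellulose synthase-like enzyme, was at 0 to 0.433 CPM in Sha O3 and 30.5, 124 and 80.3 CPM in Cvi O3 (8.38), and at 0.254 CPM in Cvi CA. Lower in Cvi were AT4G29200 (41.0 against 0.096 CPM on average, -8.59), the noncoding RNA AT4G13495 (106 against 0.296 CPM, -8.47) and AT5G03495, an RNA-binding protein (34.1 against 0.0911 CPM, -8.32; -9.26 without Cvi O3 replicate 3). These 3 were also lower in CA.

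At the floor in Sha O3 were 1217 of the higher genes, and at the floor in Cvi O3 668 of the lower genes. AT5G42530 had no count in Sha O3 and 423, 376 and 347 CPM in Cvi O3, at least 2250-fold higher. AT5G22520 (157, 110.0 and 127 CPM in Cvi O3) and AT1G07400, a small heat shock-like chaperone (102, 109 and 81.3 CPM), were at least 773-fold and 574-fold higher, and in CA they averaged 0.597 and 1.93 CPM in Cvi and 0 in Sha. In the other direction the noncoding RNA AT2G05914 was at least 1090-fold lower, with another locus on the opposite strand, and AT3G32043 (a pseudogene), AT3G44430 and the transporter-like AT3G21080 were at least 556-fold, 412-fold and 406-fold lower.

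By difference in abundance, the genes that were higher were led by RBCS1A, NADP-ME2, PEN3 and RBCS2B. NADP-ME2, a cytosolic malic enzyme, had 3054, 2976 and 4328 CPM in Sha O3 and 5972, 6156 and 6799 CPM in Cvi O3 (0.87, a call lost without Sha O3 replicate 1 at 0.71), and averaged 202 and 198 CPM in CA. PEN3, a transporter of defence compounds, had 4228, 3877 and 4068 CPM against 6249, 6686 and 6403 CPM (0.67 ± 0.21). Its groups did not overlap, and its call was lost when any 1 library was left out (0.58 to 0.69). The genes that were lower were led by the 5.8S and 18S ribosomal RNAs AT3G41979 (-2.37) and AT3G41768 (-1.45, a call lost without Sha O3 replicate 3 at -1.1), which have near-identical copies, the pseudogene AT1G79245 (-0.95) and the chloroplast-encoded ATCG00950 (-2.22).

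**Figure D5:**
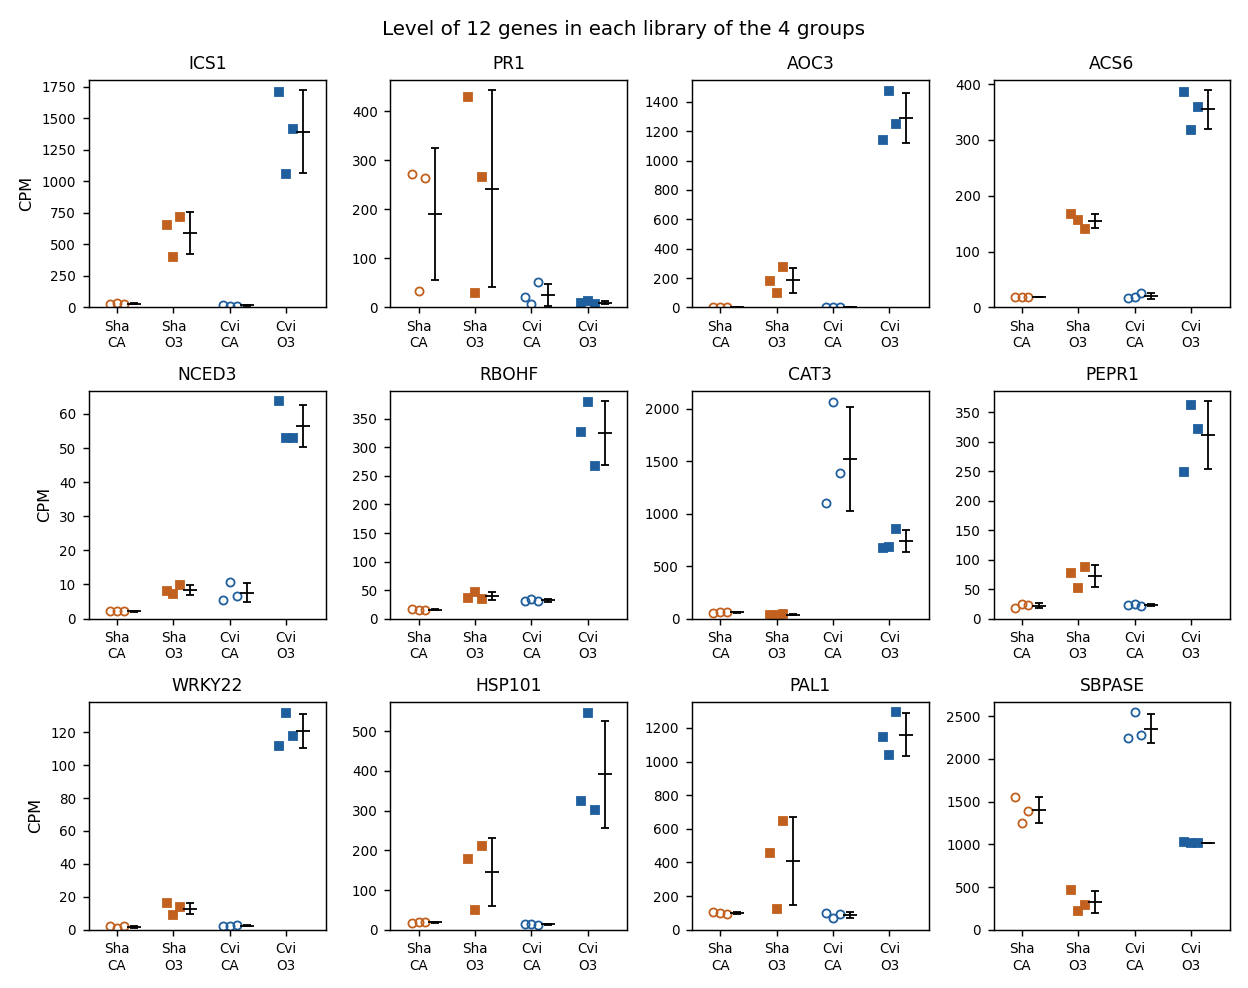
CPM on linear axes in each library of Sha CA, Sha O3, Cvi CA and Cvi O3 for 12 of the genes named in the text, with the mean and SD (n = 3) of each group beside the points. AOC3, ACS6, WRKY22 and PEPR1 were called higher in Cvi under O3 and did not pass the test in CA, whereas CAT3 was called higher in both (4.32 and 4.65).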

How the data were processed

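RNA was sequenced from pooled rosettes, and per the labels and the methods of the study the reads were checked with FastQC, trimmed with Trimmomatic 0.33 and quantified with kallisto on a Col-0 transcriptome. The library kit marks strand, but the strand setting of the quantification is not given in the sources used here. The authors deposited estimated counts per gene (69.4% of the values were not whole), and these were rounded to whole numbers. Another 6 columns match no sample here and were not used. Counts were modelled with edgeR 4.0.16 (TMM factors, likelihood-ratio form of glmTreat with a minimum change of 1.2-fold) in R 4.3.3 over 12 libraries (Sha and Cvi, CA and O3, 3 each) and 28549 genes with a count, with Benjamini-Hochberg adjustment over all of them and a threshold of 0.05. CPM values are TMM-scaled and standard errors come from the fitted model. The labels call the 3 libraries of a group biological replicates, each from pooled rosettes. Fold changes with one group at or under 3 counts in each library are lower bounds, while values given without a library are fitted values and no bounds.

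Members and gene lists were chosen with earlier results of these data known. The 18 function lists were written by name (612 genes, of which 9 could not be matched and were left out) and the 18 families by name pattern, with names from RefSeq (33437 loci matched). The genes named were the 6 largest changes in each direction without overlap and off the floor, the 4 largest bounds and the 4 largest CPM differences in each direction, the largest change of each list in each direction, and a fixed set of defence, hormone and photosynthesis genes. Other genes were chosen after their values were seen, to describe the roles within a list. Near-identical copies were sought with blastn 2.17.0 (at least 90% identity over at least 50% of the length). The fit was checked on simulated counts. Alternatives were other scalings, DESeq2 1.42.0, the quasi-likelihood test, no minimum change or a log2 change of 1.2, a filter of at least 1 CPM in 3 libraries, the 6 O3 libraries alone, a replicate block and each O3 library left out.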

Additional observations from a re-analysis of the deposited data

Results flagged for a closer look

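For 41 of the genes named by rule, the O3 response differed between the accessions by the interaction term in edgeR (adjusted p at most 0.05). The values are the Cvi response minus the Sha response on the log2 scale, and those with a group at the floor are fitted values and no bounds.

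Genes of hormones, signalling and ROS that responded more positively in Cvi were FMO1 (5.77), ACS2 (3.90), RBOHG (3.65), EDS5 (3.22), AOC3 (2.34), ICS1 (2.19), PEPR1 (2.03), RBOHF (2.01), RBOHD (1.48) and ACS6 (1.08). RBOHG was lower in Cvi under O3 (-3.48) and in CA (-7.14). Transcription factors and defence enzymes followed, with PER4 (4.46), AT2G43590 (3.96), NAC061 (3.83), WRKY22 (2.92), PAD3 (2.49, with -0.49 under O3, not called, and -2.98 in CA), IGMT1 (1.65) and WRKY33 (1.29). The cell death and chaperone genes HSP17.4 (4.1), BAG6 (2.3), HSP101 (1.89) and LSD1 (0.93) were in the same direction, as were the receptors AT4G28350 (6.28) and AT4G14370 (2.97). Genes of metabolism and growth were CYP76C5 (6.07), SAUR35 (4.19), AT5G53990 (4.11), XTH17 (3.71), IAA19 (2.50), EXPA14 (1.4) and LHCA5 (1.06), with the pentatricopeptide gene AT1G23450 (3.91) and the ribosomal protein gene AT5G63300 (3.87).

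More negative in Cvi were the senescence marker SAG29 (-5.83), the receptor kinases CRK8 (-3.10) and AT4G02420 (-1.71), AT5G03495 (-2.86), the transcription factors NAC048 (-2.73) and ANAC068 (-1.2), the expansin EXPA16 (-2.11), the tryptophan gene PAI1 (-1.09) and AT3G62820 (-0.80). For SAG29 the O3 libraries overlapped, and its O3 call was lost without Sha O3 replicate 1. Its difference in response without that library is not given here.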

How the results depend on the processing

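None of the 122 genes named by rule reversed its call under the alternatives run. List medians were less stable: without Sha O3 replicate 2 that of SA and N-hydroxypipecolic acid went from 0.16 to -0.055 and that of glutathione S-transferases from 0.10 to -0.01 (-0.01 also without Sha O3 replicate 1), and glucosinolate genes went from 11 higher and 10 lower to 10 and 12. The median of immune receptors and kinases went from 0.12 to -0.05 without Sha O3 replicate 1, and that of phenylpropanoids and flavonoids from 0.10 to -0.18 without Sha O3 replicate 3. The medians of NBS-LRR proteins (0.01), aquaporins (0.04), glucosinolates (0.06) and stomatal genes (0.00) also changed sign under some alternatives. With a log2 change of 1.2 as the minimum, 1774 genes were higher and 974 lower under O3, 963 and 990 in CA, and 464 and 66 had a more positive and a more negative response in Cvi. DESeq2 gave 2329 lower genes under O3, 1517 higher and 1761 lower genes in CA, and 298 genes with a more negative response. Leaving out single O3 libraries gave 4405 to 4786 higher and 3261 to 4299 lower genes. Replicate numbers did not pair the O3 samples (correlations of deviations 0.0379, -0.175 and 0.00413), and with a replicate block 5753 genes were higher and 4150 lower over 12 libraries, and 4586 and 3747 over the 6 O3 libraries. In CA the correlations were 0.328, 0.487 and 0.27, and with the block 2831 genes were higher and 2890 lower in CA, and 2043 had a more positive and 930 a more negative response. Of the 122 genes named by rule, 41 lost their call with the log2 change of 1.2, 12 with DESeq2, 6 with the quasi-likelihood test, 4 with upper-quartile factors, 4 with the O3 libraries alone, and 7 to 9 without a single O3 library. With the replicate block 1 lost and 2 gained a call, and 6 lost and 2 gained one with the block over the 6 O3 libraries. None of the 122 changed call with RLE factors or with the CPM filter. In Sha, with fewer counts per library, the floor limits the bounds more than in Cvi.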
